A study of Mus musculus with 16 samples.

Results

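The 8 transcription factors described here, Gata4, Gata6, Tbx20, Tbx5, Tbx18, Hand2, Wt1 and Meox2, were grouped as factors of the cardiac and epicardial lineages. They were followed in sorted adult mouse cardiac fibroblasts in which TCF21 was lost or gained. The members were chosen by symbol for this grouping, and were 8 of 19707 genes listed in 3 separately normalized tables. All 8 were listed in each table. The cells came from hearts of mice aged 8 to 12 weeks, all carrying a Rosa26 loxP-STOP-loxP reporter for enhanced green fluorescent protein, by which the fibroblasts were traced and sorted, and all given tamoxifen. The uninjured loss group held 3 libraries of genotype Tcf21-MerCreMer:Tcf21-fl, taken 2 weeks after tamoxifen, and its control group held 3 libraries of genotype Tcf21-MerCreMer. The infused loss group held 2 libraries and its control group 3, of the same genotypes, after 1 week of continuous angiotensin II and phenylephrine, agents that drive fibrosis. The infused gain group held 2 libraries of genotype Pdgfra-creERT:Col1a1-TCF21, and its control group 3 libraries of genotype Pdgfra-creERT, after the same infusion. Control mice thus carried the Cre without the floxed allele or the transgene, and the Cre follows Tcf21 in the loss arms and Pdgfra in the gain arm. No label ties a library to an animal, and the spread behind each p-value is that between libraries, which may be technical.

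GATA factors, T-box factors and HAND factors act together in the network that sets up heart muscle, valves and chambers. Part of this network stays active in adult cardiac fibroblasts, most of which descend from the epicardium, the cell layer that covers the heart. Wt1 and Tbx18 are classical markers of the embryonic epicardium, and Tcf21, a basic helix-loop-helix factor, is needed there for fibroblasts to form. Gata4, Tbx5 and Hand2, delivered with Mef2c, are used to turn cultured fibroblasts towards a heart muscle fate.

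Normalized counts, the deposited unit, summed to between 27814940 and 40970391 per library, and the log2 values of libraries of 1 table correlated across genes at Pearson's r of 0.944 to 0.981. Fibroblast markers such as Col1a1 and Pdgfra summed to between 3046000 and 4723000 normalized counts per library. Tcf21 itself had 1244, 1254 and 1718 normalized counts in uninjured loss libraries, against 7825, 8081 and 7507 in their controls. It had 258 and 185 in infused loss libraries, against 2814, 1802 and 1509.8 in their controls. It had 14819.6 and 13502 in infused gain libraries, against 6058, 5145 and 6235 in their controls. No group overlapped its control, and Tcf21 passed the test in all 3 comparisons (limma, adjusted p of 4.22e-05, 0.00494 and 0.00446 in the order given). In infused loss it no longer passed without either loss library (adjusted p of 0.0584 without replicate 1 and 0.086 without replicate 2).

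Of the 8 factors 7 averaged 10 or more normalized counts in each table and were tested, and Wt1 was too low. Tbx20 was 1.63-fold higher after TCF21 gain and was the only member past the test (adjusted p below 0.05) in any of the comparisons with controls. After gain 1 of the 7 tested members passed, while 4.14% of all 15369 genes tested did, and a share over 7 genes turns on that single call. None of the 7 passed in uninjured loss, where 3.58% of all genes did, or in infused loss, where 0.912% did. At an unadjusted p below 0.05 the limma test counted 0 members in uninjured loss, 3 in infused loss and 4 in infused gain, where 21.2%, 16.1% and 20.4% of all genes lay below it. The median log2 fold change of the tested members was -0.14 in uninjured loss, -0.18 in infused loss and -0.07 in infused gain, beside -0.01, 0.00 and 0.01 for all genes tested. In these bulk samples fewer cells that use a gene and less of its RNA per cell cannot be told apart.

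**Figure D1:**
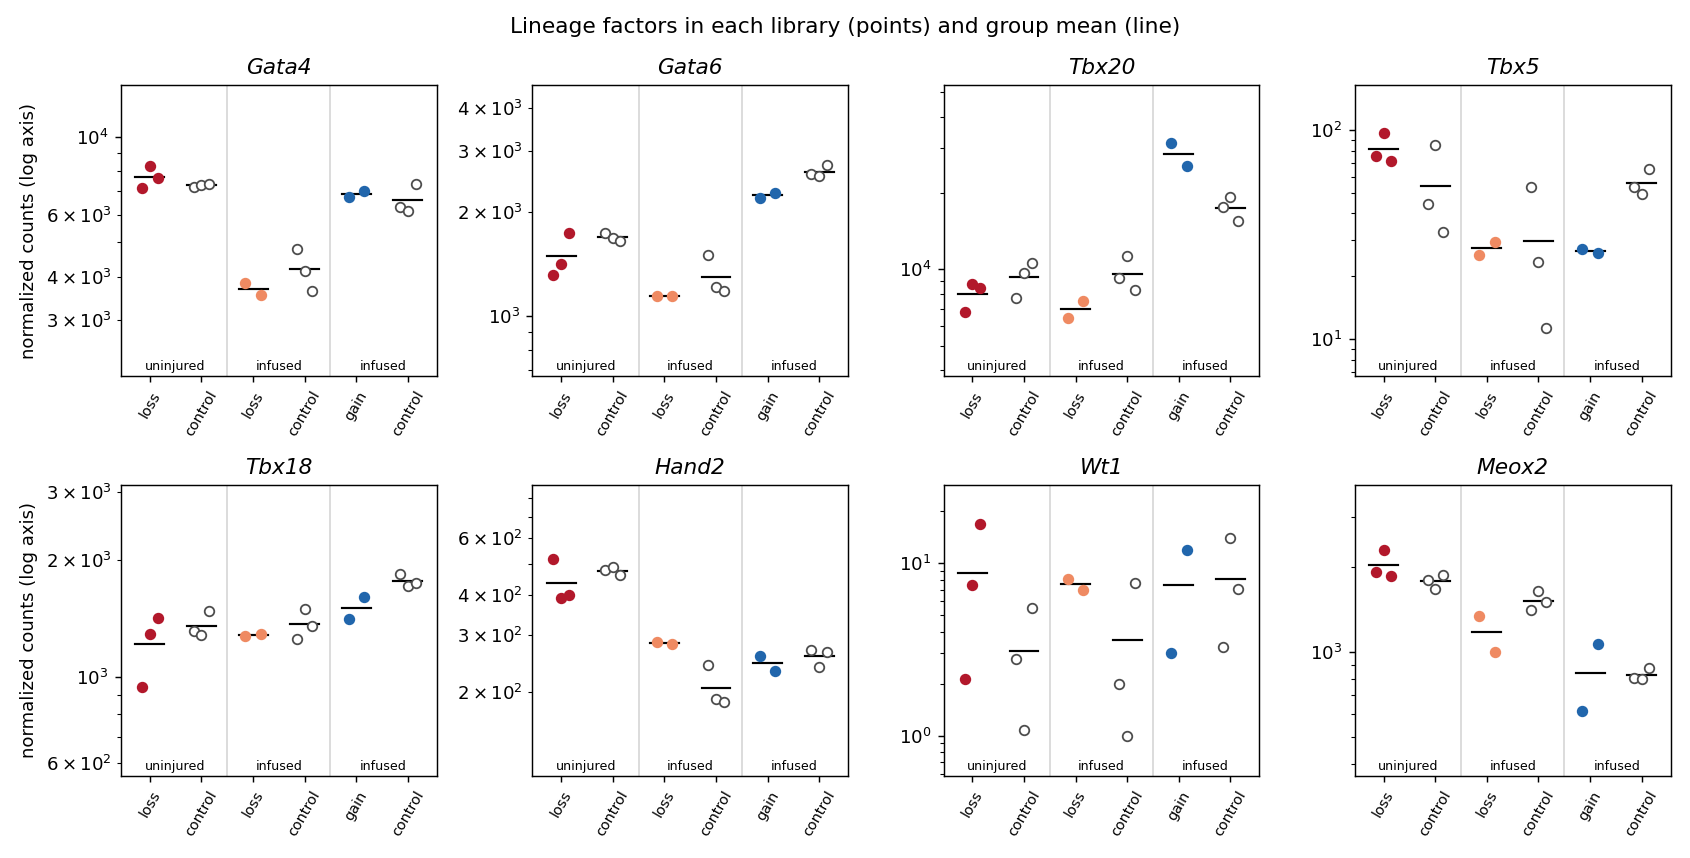
Normalized counts of the 8 lineage factors in each library, on a log axis. Points are libraries, lines are group means, and filled points (loss or gain) stand left of the open points of their controls; Tbx20 shows 31393 and 25493 in the gain libraries, above all 3 of their controls.

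Tbx20, a T-box factor that the embryonic heart needs to form its chambers and valves, rose after TCF21 gain. It had 31393 and 25493 normalized counts in infused gain libraries, against 17669.5, 19222 and 15462 in their controls. Both gain libraries lay above every control. The group means were 28443 ± 4172 and 17451 ± 1890 (SD, n = 2 and 3), a log2 fold change of 0.70 (SE 0.14, 95% interval 0.38 to 1.02, adjusted p = 0.0374). The call was lost without gain replicate 1 (log2 fold change 0.55, adjusted p = 0.202), without gain replicate 2 (0.85, adjusted p = 0.0866) and without control replicate 1 (0.71, adjusted p = 0.102), and also in a fit without a variance trend (adjusted p = 0.143). In infused loss it had 6450.4 and 7506 normalized counts, against 9232, 11245 and 8260.5 in the controls. Both loss libraries lay below every control, but the log2 fold change of -0.45 (SE 0.15, 95% interval -0.81 to -0.09) did not pass (adjusted p = 0.232). In uninjured loss the libraries had 6787, 8787 and 8445, against 7686, 9698 and 10622 in the controls. These groups overlapped, with a log2 fold change of -0.22 (95% interval -0.53 to 0.09, adjusted p = 0.398).

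The gain and infused loss effects on Tbx20 were also set against each other, a test chosen after these values were seen. The gain effect exceeded the infused loss effect by 1.15 on the log2 scale (SE 0.22, 95% interval 0.67 to 1.64, adjusted p = 0.0238), a contrast in which 2.93% of all genes passed. It passed for none of the other 6 tested members (adjusted p of 0.272 to 0.905). Each effect came from its own table and its own controls, which differ in Cre driver. The difference still passed in 6 of 10 fits that each left out 1 library, and not without gain replicate 1 (adjusted p = 0.107), gain control replicate 1 (0.0593), infused loss replicate 1 (0.0847) or infused loss replicate 2 (0.0547). Within libraries, Tbx20 per kilobase of exon was 8.75 and 6.24 times Tbx18 in gain libraries, against 3.77, 4.41 and 3.48 times in their controls. It was 1.52 and 1.18 times Gata4 in gain libraries, against 0.913, 1.02 and 0.684 times in their controls. In infused loss the ratio of Tbx20 to Gata4 was 0.548 and 0.69, against 0.628, 0.882 and 0.737, with overlap, and that to Tbx18 was 1.99 and 2.28, against 2.9, 2.96 and 2.4.

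Tbx20 is also used by heart muscle and endocardial cells, so their markers were read in the same libraries. Of 14 heart muscle markers 13 were listed, and their values summed to between 1193 and 1264 normalized counts in gain libraries and to between 977.3 and 1052 in their controls. One of them, the cardiac actin gene Actc1, rose (286 to 336 in gain libraries, against 102 to 154, adjusted p = 0.0315), while the heart muscle myosin Myh6 stood at 68.2 to 82.7, against 72.6 to 135. All 14 endothelial and endocardial markers were listed, summing to between 7114 and 10850 in gain libraries and to between 9392 and 12510 in their controls. The angiopoietin receptor gene Tek made up the largest part of that sum and fell, averaging 5315 against 9289 (adjusted p = 0.0297). The endothelial cadherin Cdh5 stood at 2.74 to 21.0, against 8.72 to 12.97. Of the 13 markers tested, 8 had a positive log2 fold change and 5 a negative one (median 0.23), and only Tek passed. The sum thus follows Tek more than the list as a whole. Mural cell markers (15 of 15 listed) summed to between 36520 and 42410 in gain libraries, against 44860 to 52670 in their controls. Pdgfrb made up the largest part of this sum, averaging 22609 against 30846. Of the 14 mural markers tested, 5 had a positive log2 fold change and 9 a negative one (median -0.26). Only Des passed, an intermediate filament of muscle, and it rose (adjusted p = 0.0419). Fibroblast markers (12 of 12 listed) summed to between 3157000 and 3386000 in gain libraries, against 4422000 to 4723000 in their controls. Of these 12, 3 had a positive log2 fold change and 9 a negative one. None fell past the test, and the 1 that rose past it was Tcf21 itself. Of all genes tested in gain 1.57% rose and 2.57% fell. The part of these cell types in the Tbx20 result was not tested.

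Tbx20 lies on chromosome 9 (24718138 to 24774303, minus strand, GRCm38, GENCODE vM21; ENSMUSG00000031965), as does Tbx18 (87702800 to 87731260, minus strand; ENSMUSG00000032419). TCF21 and other basic helix-loop-helix factors bind the E-box, CANNTG, which reads as CANNTG on both strands. The 250 bases before the start of each gene, from RefSeq on GRCm38.p6, are shown 5′ to 3′ on the gene's strand. They are from the T-box member that passed the test, Tbx20 (chr9:24774304-24774553), and from a T-box member that did not, Tbx18 (chr9:87731261-87731510). Tbx5, the other T-box member that did not pass, had no window. Capitals mark E-boxes.
Tbx20: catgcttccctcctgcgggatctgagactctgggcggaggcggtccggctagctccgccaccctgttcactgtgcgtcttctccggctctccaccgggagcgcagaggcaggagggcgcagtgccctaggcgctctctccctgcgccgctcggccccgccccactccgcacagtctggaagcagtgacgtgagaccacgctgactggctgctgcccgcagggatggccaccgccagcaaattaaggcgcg
Tbx18: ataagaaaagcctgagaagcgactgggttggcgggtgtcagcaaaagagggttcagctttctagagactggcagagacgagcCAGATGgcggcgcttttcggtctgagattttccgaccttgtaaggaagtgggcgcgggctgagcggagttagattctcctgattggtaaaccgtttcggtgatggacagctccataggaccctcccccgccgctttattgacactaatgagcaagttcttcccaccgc
The Tbx20 window held no CANNTG and the Tbx18 window held 1, CAGATG, 168 bases before the start. Neither window held AGATAA, the GATA motif, or AGGTGT, the T-box motif, on either strand. Of 32851 windows of the same length, 66.2% held CANNTG, 9.99% AGATAA and 11.8% AGGTGT. Of the other members, the Hand2 window held 2 E-boxes and 1 GATA motif and the Meox2 window 1 E-box. A window was given for 4 of the 8 members.

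Tbx5, the T-box gene mutated in human Holt-Oram syndrome and a factor of atria and forelimbs, was the lowest of the tested members. It had 27.1 and 25.8 normalized counts in infused gain libraries, against 53.6, 49.6 and 65.5 in their controls. Both gain libraries lay below every control, at 26.4 ± 0.948 and 56.2 ± 8.29 (SD, n = 2 and 3), a log2 fold change of -1.05 (95% interval -1.82 to -0.28) that did not pass (adjusted p = 0.132). Infused loss libraries had 25.3 and 29.3, against 53.5, 23.3 and 11.3 in the controls, whose own range enclosed both loss libraries (log2 fold change 0.15, 95% interval -1.33 to 1.63, adjusted p = 0.921). Uninjured loss libraries had 75.5, 97.0 and 71.7, against 44.6, 85.3 and 32.5 in the controls, with overlap and a log2 fold change of 0.68 (95% interval -0.23 to 1.60, adjusted p = 0.366).

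Tbx18, a T-box factor of the embryonic epicardium and of mural cells, passed in no comparison. It had 1411 and 1607 normalized counts in infused gain libraries, against 1845, 1715 and 1747 in their controls. The gain libraries lay below every control, with a log2 fold change of -0.23 (95% interval -0.46 to -0.0024) that did not pass (adjusted p = 0.240). Tbx18 stood at 1272 and 1293 in infused loss libraries, against 1253, 1493 and 1353 in the controls. It stood at 943, 1289 and 1418 in uninjured loss libraries, against 1312, 1281 and 1478 in the controls. Both loss groups overlapped their controls (log2 fold change -0.09, adjusted p = 0.716, in infused loss and -0.18, adjusted p = 0.552, in uninjured loss). D030062O11Rik, annotated on the opposite strand, shares 970 exon bases (20.6%) with Tbx18. It was not listed under this symbol in any table, and reads of the shared bases cannot be told apart.

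Gata4, the zinc-finger factor that opens the cardiac programme, overlapped its controls in every comparison. It had 6719 and 7023 normalized counts in infused gain libraries, against 6294, 6155 and 7358 in their controls. Infused loss libraries had 3834 and 3539.7, against 4785, 4146 and 3645. Uninjured loss libraries had 7122, 8258 and 7629, against 7186, 7289 and 7328. The 95% intervals of the log2 fold change, -0.18 to 0.30 after gain, -0.48 to 0.13 in infused loss and -0.10 to 0.25 in uninjured loss, held no 2-fold change in either direction.

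Gata6, its relative with overlapping roles in heart development, had lower means than its controls in every comparison and passed in none. It had 2203 and 2270.2 normalized counts in infused gain libraries, against 2572, 2549 and 2746 in their controls, which did not overlap (log2 fold change -0.23, 95% interval -0.42 to -0.03, adjusted p = 0.185). In infused loss the libraries stood close together at 1142 and 1141, against 1504, 1214 and 1188, below every control (log2 fold change -0.18, adjusted p = 0.517). In uninjured loss it had 1319.8, 1412 and 1737, against 1739.8, 1684 and 1655, with overlap (log2 fold change -0.19, adjusted p = 0.367). Gata6os, a transcript of the opposite strand that shares 93 exon bases (1.43%) with Gata6, had 28.8 and 20.2 normalized counts in gain libraries, against 33.8, 52.3 and 32.9, and passed in no comparison. No label states that counting used strand, so reads from the shared bases cannot be told apart.

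Hand2, a basic helix-loop-helix factor of the right ventricle and the epicardium and thus of the same class as TCF21, was higher in both infused loss libraries than in any control. It had 286 and 281 normalized counts there, against 242, 190 and 187 (log2 fold change 0.47, 95% interval 0.05 to 0.89), and did not pass (adjusted p = 0.272). In infused gain it had 259 and 233, against 270, 239 and 265, with overlap (log2 fold change -0.07, adjusted p = 0.861). In uninjured loss it had 517, 392 and 401, against 478, 487 and 463, so that 1 loss library lay above and the other 2 below all controls (adjusted p = 0.654). Hand2os1, transcribed from the opposite strand and sharing 461 exon bases (19.6% of those of Hand2), had 163 and 125 normalized counts in gain libraries, against 266, 229 and 275. It lay below every control there (log2 fold change -0.84, adjusted p = 0.0703). In infused loss it had 99.3 and 112, against 109, 100 and 67.6, and in uninjured loss 452, 323 and 489, against 317, 316 and 270 (adjusted p of 0.729 and 0.211). Reads of the bases that Hand2 and Hand2os1 share cannot be told apart here either.

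Meox2, a homeobox factor that restrains cell division in vascular cells, was lower in both infused loss libraries than in any control. It had 1342 and 998 normalized counts there, against 1402, 1647 and 1500.3 (log2 fold change -0.39, 95% interval -0.74 to -0.03), and did not pass (adjusted p = 0.278). In infused gain it had 617 and 1066, against 809, 804 and 877. The 2 gain libraries lay on either side of all controls, so the group mean describes neither (log2 fold change -0.03, 95% interval -0.54 to 0.47, adjusted p = 0.956). In uninjured loss it had 1922, 2302 and 1861, against 1794, 1667 and 1870.5, with overlap (log2 fold change 0.19, adjusted p = 0.349). In infused loss 4 of the 7 tested members, Gata6, Tbx20, Hand2 and Meox2, did not overlap their controls, while 35.0% of all genes tested did not. In infused gain 4 did not, Tbx20, Tbx5, Tbx18 and Gata6, beside 39.3% of all genes, and in uninjured loss none did, beside 27.7%.

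**Figure D2:**
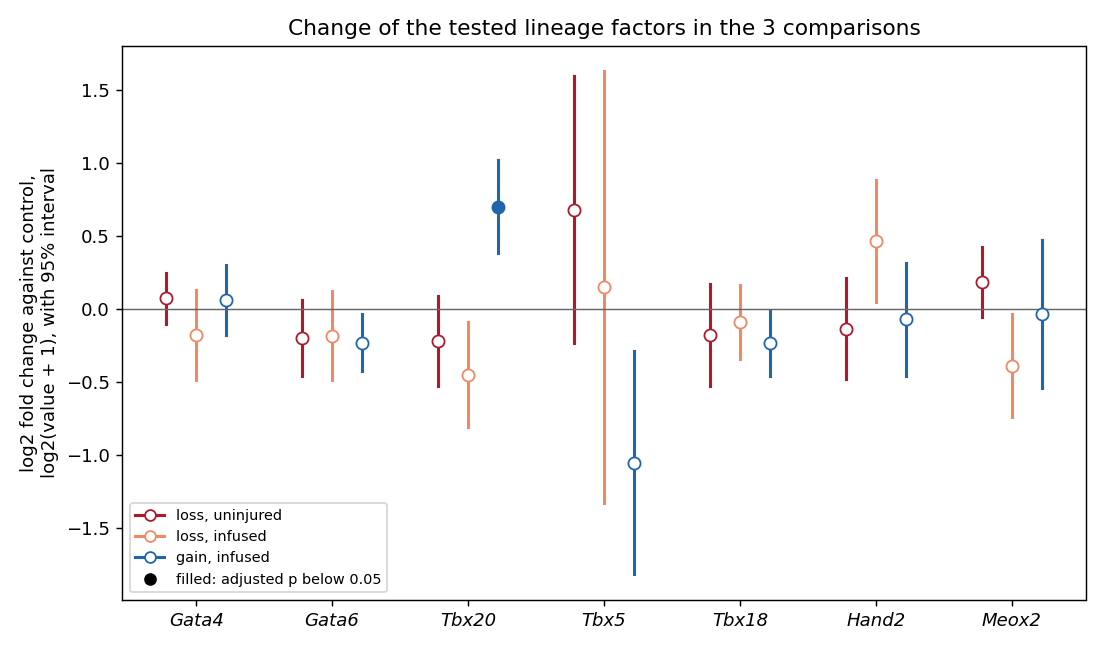
Log2 fold change of each tested lineage factor against its controls in uninjured loss, infused loss and infused gain, with 95% intervals; a filled point marks an adjusted p below 0.05. The filled point is Tbx20 in infused gain at 0.70, and Tbx5 has the widest intervals.

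Whether the loss effect differed with and without infusion was asked in 1 model of the 4 loss-arm groups. None of the 7 tested members passed, while 0.149% of all 14130 genes tested did, and at an unadjusted p below 0.05 the limma test counted 2, Hand2 and Meox2, where 11.6% of all genes lay below it. The loss effect on Meox2 was lower with infusion than without by -0.57 on the log2 scale (95% interval -0.98 to -0.16, adjusted p = 0.325). That on Hand2 was higher with infusion by 0.61 (95% interval 0.10 to 1.11, adjusted p = 0.378). For Tbx20 the difference was -0.23 (95% interval -0.73 to 0.27, adjusted p = 0.721). In the infused loss libraries erythroid markers (5 of 6 listed, 1 rose) summed to between 151.3 and 460.3 normalized counts, against 19.34 to 44.93 in the controls. Leukocyte markers (9 of 12 listed, 1 fell) summed to between 431.2 and 721.7, against 753.6 to 946.9. Schwann cell markers (3 of 6 listed, of which Cdh19 fell) summed to between 531.1 and 555.7, against 985.6 to 1425. Mural cell markers (15 of 15 listed, none passed) summed to between 43280 and 54590, against 38800 to 43020. Of the 14 tested, 6 had a positive log2 fold change and 8 a negative one (median -0.09). The contractile genes Acta2 and Tagln in this list averaged 11373 and 5518 in infused loss libraries, against 5150 and 3037 in the controls. Of all genes tested in infused loss 0.912% passed. The part of these cell types in the Hand2 and Meox2 values was not tested.

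Wt1, a zinc-finger factor that marks the epicardium and is needed for it to release mesenchymal cells, was close to the limit of detection. It had 3.00 and 11.9 normalized counts in infused gain libraries, against 3.27, 14.0 and 7.04 in their controls. Infused loss libraries had 8.12 and 6.95, against 2.00, 0.993 and 7.72. Uninjured loss libraries had 2.12, 7.44 and 16.8, against 2.77, 1.07 and 5.49. Since the steps between low values in a library were 0.898 to 1.16 normalized counts, these values stand for a handful of reads. All groups of Wt1 but the pair of infused loss libraries varied by a factor of over 3 among their own members, and no difference was detectable at this depth (limma without the filter, adjusted p of 0.945, 0.499 and 0.558 in the order given).

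Of 19 markers of the epicardium and mesothelium, 8 were listed in the infused gain table, 9 in the infused loss table and 10 in the uninjured loss table. Lrrn4, Gpm6a and Dmkn, where listed, lay at or below 18.1 normalized counts in each library. The sum of the list came mostly from complement C3 and the sulfatase Sulf1, which fibroblasts also express, and lay between 86160 and 90350 in gain libraries, against 89990 to 118400 in their controls. In infused loss it lay between 57560 and 62850, against 58990 to 108400, and in uninjured loss between 162200 and 184700, against 134800 to 153400. After gain 1 member rose, Aldh1a2, which makes retinoic acid in the epicardium, and 1 fell, C3 (adjusted p of 0.00954 and 0.0318), out of 8 tested, while 1.57% of all genes rose and 2.57% fell. Aldh1a2 averaged 15125 ± 2605 normalized counts in gain libraries and 6546 ± 815 in their controls (SD, n = 2 and 3), 2.31-fold higher, and did not pass without gain replicate 2 (adjusted p = 0.0546). It also lay above every control in both loss comparisons without passing. It had 9065 to 15258 in uninjured loss libraries, against 5754 to 7771 in the controls (log2 fold change 0.81, adjusted p = 0.0522), and 10336 to 10648 in infused loss libraries, against 7102 to 8752 (0.43, adjusted p = 0.169). No list member passed in either loss comparison, where the limma test counted 1 of 7 in infused loss and 4 of 7 in uninjured loss at an unadjusted p below 0.05, beside 16.1% and 21.2% of all genes.

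The order of the members' levels in control libraries was read per kilobase of exon, and their place among all genes with a known length. Gata4 had the highest mean in each control group, at 1862 ± 18.7 normalized counts per kilobase in uninjured controls, 1074 ± 146 in infused controls of the loss arm and 1691 ± 169 in controls of the gain arm (SD, n = 3 each). It stood above 94.6%, 93.4% and 94.1% of all listed genes with a length in the same order. Tbx20 came next at 778 ± 125, 798 ± 127 and 1455 ± 158 per kilobase, above 86.2%, 90.7% and 93.0% of genes. Tables were normalized separately, so levels are set side by side within a group and their differences across groups are not on a common scale.

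Meox2 followed Tbx20 in both control groups of the loss arms, at 753 ± 43.6 and 643 ± 52.2 per kilobase, and stood below Gata6 and Tbx18 in the gain arm's, at 352 ± 17.4. Tbx18 had 288 ± 22.5, 290 ± 25.5 and 375 ± 14.3, and Gata6 had 260 ± 6.59, 200.03 ± 27.0 and 403 ± 16.6. Hand2 came below these in each group at 202 ± 5.33, 87.7 ± 13.2 and 110 ± 7.04. Tbx5 followed at 11.6 ± 5.91, 6.29 ± 4.65 and 12.0 ± 1.77, above 21.5%, 15.3% and 20.0% of genes. Wt1 was last at 0.502 ± 0.360, 0.576 ± 0.585 and 1.31 ± 0.875.

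Some neighbours in this order did not differ beyond their spread. In uninjured controls the ranges of Tbx20 and Meox2 overlapped. In infused controls of the loss arm those of Gata4 and Tbx20, and of Tbx20 and Meox2, overlapped, although the order held within each of the 3 libraries (for Gata4 over Tbx20 in 2 of 3 with the longest transcript as the length). In controls of the gain arm Gata4 and Tbx20 overlapped, with Gata4 ahead in 2 of 3 libraries, or in 1 of 3 with the longest transcript, where the ratio of their means was 1.01. Tbx18 and Meox2 also overlapped there. The other steps held in 3 of 3 libraries without overlap. Tbx18 and Gata6 changed places in both loss-arm control groups when the longest transcript was used as the length, so their order is not settled. The step down to Tbx5 was the widest among the tested members, with Hand2 at 17.5, 13.9 and 9.13 times Tbx5.

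**Figure D3:**
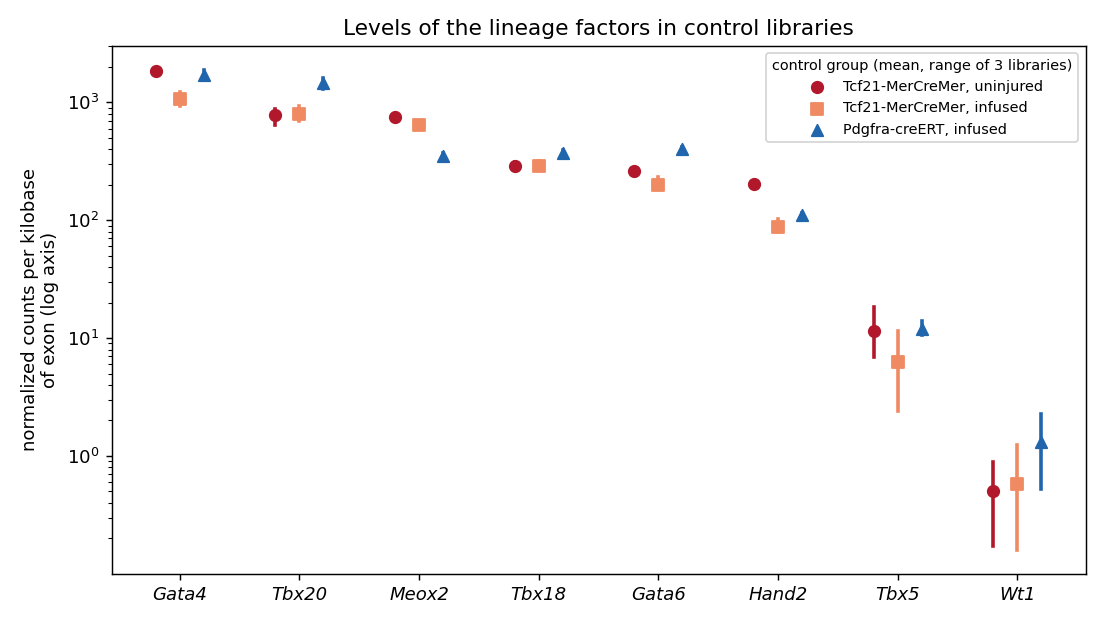
Levels of the 8 lineage factors in the 3 control groups, in normalized counts per kilobase of exon on a log axis. Markers are means and bars the range of 3 libraries, or are hidden by the marker where the range is narrow; Gata4 has the highest mean in each group, and Tbx5 and Wt1 lie far below the others.

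A list of 38 other transcription factors of heart and epicardium, among them partners of the members, put these values in context. The list, like the members, was chosen with results of these data known. In infused gain 32 were listed and 30 tested, of which 3 rose and 1 fell, while 1.57% of all genes rose and 2.57% fell. In uninjured loss 31 were listed and 29 tested, of which 1 rose and 3 fell, while 1.63% of all genes rose and 1.96% fell. In infused loss 31 were listed and tested and none passed, while 0.912% of all genes did. There 1 lay at an unadjusted p below 0.05 in the limma test, beside 16.1% of all genes. The median log2 fold changes were 0.04, -0.12 and -0.05 in the same order.

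Zfpm1, or FOG1, a cofactor that binds GATA factors, rose in gain to 238 ± 77.3 normalized counts, against 51.4 ± 23.7 in the controls (SD, n = 2 and 3), a log2 fold change of 2.25 (SE 0.42, adjusted p = 0.0331). In uninjured loss it had 169 ± 54.4, against 78.3 ± 45.2 (1.24, adjusted p = 0.188), and in infused loss 191 ± 68.9, against 88.8 ± 75.6 (1.42, adjusted p = 0.370), and passed in neither. Zfpm1 is also a factor of blood cells. Leukocyte markers (9 of 12 listed, none passed) summed to between 2332 and 4614 in gain libraries, against 2036 to 3216 in their controls, and erythroid markers (5 of 6 listed, none passed) to between 65.22 and 175.9, against 15.08 to 63.86. Their part in the Zfpm1 result was not tested. Its relative Zfpm2, the partner of Gata4 in the embryonic heart, had 2532 ± 186 and 2454 ± 261, with a log2 fold change of 0.05 (adjusted p = 0.859). Meox1, the paralogue of Meox2 and a factor of activated fibroblasts, rose in gain to 15079 ± 215, against 11260.0 ± 612 (log2 fold change 0.42, adjusted p = 0.0458), and in uninjured loss to 8098.5 ± 1138, against 5258 ± 459 (0.62, adjusted p = 0.0284). Meox2, by contrast, passed in neither. Srf, which drives contractile genes, rose in gain to 1019 ± 0.113, against 691 ± 28.6 (0.56, adjusted p = 0.0315).

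Osr1, an embryonic mesenchyme factor, fell in both of these comparisons. It averaged 673 ± 85.5 normalized counts in gain libraries and 1193 ± 194 in their controls (log2 fold change -0.82, adjusted p = 0.0425). It averaged 1976 ± 180 in uninjured loss libraries and 2823 ± 365 in their controls (-0.51, adjusted p = 0.0494). Heyl, a Notch target also strong in mural cells, fell in uninjured loss to 11052 ± 836, against 19679 ± 313 (-0.83, SE 0.08, adjusted p = 0.00112), and Sox9, a factor of cartilage and valve cells, to 3697 ± 202, against 5132 ± 392 (-0.47, adjusted p = 0.0276). In the same libraries mural cell markers summed to between 41700 and 44120, against 48610 to 53320 in the controls. Of these markers 4 of 15 fell, while 1.96% of all genes did, and their part in the Heyl result was not tested.

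Among these calls only that of Heyl held in each of the 6 fits that left out 1 library. Zfpm1 still passed in 3 of 5 such fits, Meox1 in 2 of 6 in uninjured loss and 1 of 5 in gain, Sox9 in 2 of 6, Srf in 1 of 5, and Osr1 in 1 of 5 in gain and 0 of 6 in uninjured loss. In infused loss the smallest p-values belonged to Mef2a (log2 fold change -0.34, adjusted p = 0.190) and Smarcd3 (0.36, adjusted p = 0.313). Nkx2-5, the homeobox factor of heart muscle, was listed in the uninjured loss and gain tables at 0 to 12.3 normalized counts, and Gata5, another cardiac GATA factor, in all 3 tables at 4.38 to 34.8.

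**Figure D4:**
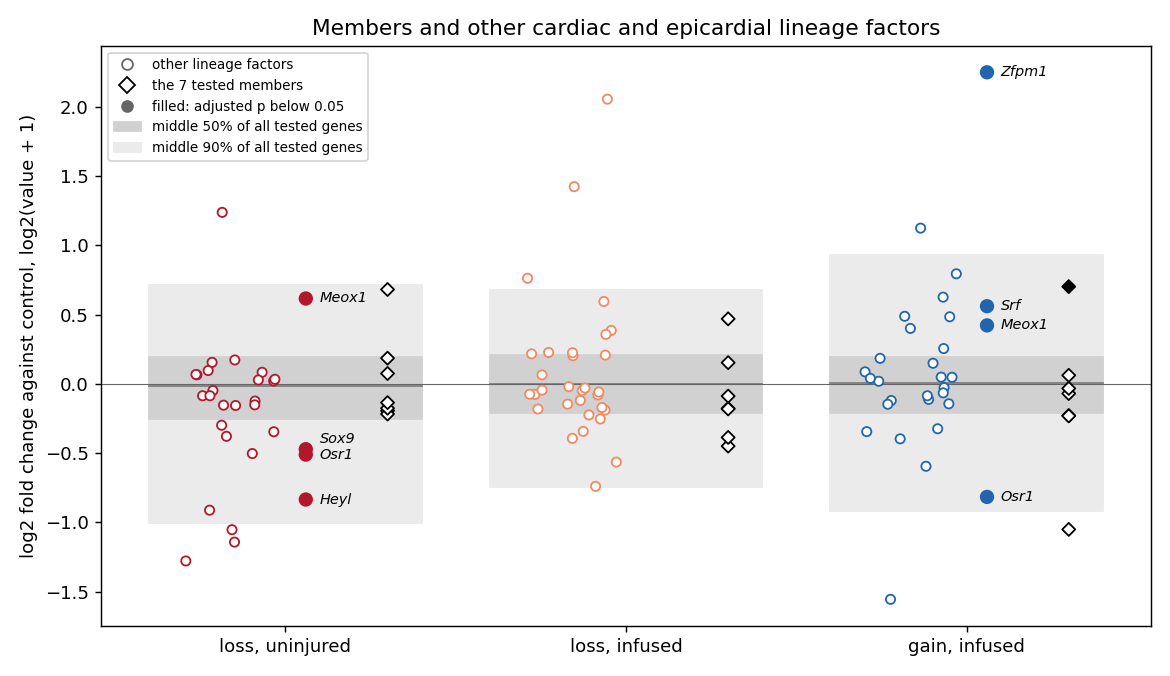
Log2 fold changes of the other lineage factors (circles) and of the 7 tested members (diamonds) in the 3 comparisons, with filled symbols for an adjusted p below 0.05. Bands hold the middle 50% and 90% of all genes tested; most factors lie inside them, and Zfpm1 in gain lies farthest above.

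The genes most like each member were found by Pearson's r of log2 values over all 16 libraries, centred on the mean of each table, among about 11209 genes averaging 50 or more in each. These are descriptions, since libraries of 1 group share its treatment. Gata4 was most like Nid2, a basement membrane protein (r = 0.921), and Ptgir, the prostacyclin receptor (0.908). One of the genes most like Tbx20 was Tmod3 (0.883), which caps actin filaments. Gata6 was most like Rhebl1 and Stx3 (0.898 each), and Tbx18 like Lmtk2 (0.897) and the non-muscle myosin Myh10 (0.877). Tbx5 was most like Tapbp (0.881) and Lpin1 (0.855), Hand2 like Hgh1 (0.87) and Txndc9 (0.861), and Meox2 like Tubgcp2 (0.872) and Cand2 (0.797). Wt1 was most like Gm15501 (0.849) and Atp6v1g2 (0.846), at values too low to read further. No member was among the 2 genes most like another. The highest r between 2 members was 0.564, for Gata6 and Tbx18, and the lowest -0.613, for Hand2 and Meox2.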

How the data were processed

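RNA of sorted cardiac fibroblasts was extracted by miRNeasy micro kit and made into libraries by SMART-seq v4 low-input amplification, per the labels' protocols. The authors deposited 3 tables of normalized counts, a signal of estimated counts per gene divided by normalization factors within each table; the submitters' processing notes list GRCm38, kallisto and DESeq2, while versions and annotation were not given in the sources used here. Only 31.3% to 67.4% of low values in a library lay within 0.03 of a whole step, so reads could not be recovered as whole numbers and count models were not used.

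Within a table, genes averaging 10 or more entered limma 3.58.1 (R 4.3.3) as log2(value + 1), with the 2 groups compared, no covariate, an eBayes variance trend and two-sided p-values that were Benjamini-Hochberg adjusted over all tested genes. Fold changes are on that scale, which understates those of low genes. The loss interaction used 4 groups. Calculations were tested on simulated data. Exon lengths are of GENCODE vM21 (85.1% to 87.1% of listed genes matched by symbol), and promoters of RefSeq GRCm38.p6, of which the 250 bases before the start were read.

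Named genes were the members, Tcf21, list members past the threshold or with the smallest p, overlapping genes and the 2 most like each member; some genes that this rule took are left out. Members and lists were chosen with earlier results of these data known. The alternatives tried were a pseudocount of 5, no filter, quantile scaling, no variance trend, library weights, a replicate block, the longest transcript as gene length, and each library left out in turn.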

Additional observations from a re-analysis of the deposited data

How the results depend on the processing

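In the 3 comparisons with controls the median of all genes moved by less than 0.1 on the log2 scale under the other pseudocount, filter, scaling, variance model, library weights and replicate block. No fold change of Tbx20, Gata4 or Tbx18 in a comparison with controls turned round, and uninjured loss called no member under any alternative. Without a variance trend 94 genes passed in uninjured loss, 72 in infused loss and 25 in gain, against 557, 135 and 637, and 0 members passed in gain. With library weights 949, 308, 1013 and, for the loss interaction, 39 genes passed, the last against 21. Leaving out 1 library gave 88 to 875 genes in uninjured loss, 32 to 175 in infused loss, 118 to 819 in gain and 12 to 58 for the interaction, and 0 to 1 members in gain. It also gave log2 fold changes of -0.37 to 0.70 for Tbx5 in infused loss, -0.43 to 0.36 for Meox2 and -0.15 to 0.0084 for Hand2 in gain, and -0.58 to 0.00032 and -0.21 to 0.0401 for Gata6os in uninjured and infused loss. For the interaction it gave -0.0682 to 0.13 for Gata6, -0.0852 to 0.21 for Tbx18 and -1.05 to 0.0234 for Tbx5. Quantile scaling turned the Gata6 interaction to -0.0019 and library weights that of Tbx18 to -0.0795. The causes were not tested.

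With the replicate number as a block 227, 1462, 1842 and 79 genes passed in uninjured loss, infused loss, gain and the interaction. The block had 1 member passing in infused loss, Tbx20 (log2 fold change -0.55, adjusted p = 0.00963), and Tbx20 still passed in gain (0.62, adjusted p = 0.0116). In both infused comparisons only the controls had a replicate 3, so the block took that library out of the comparison. Calls of the block there and in the interaction thus rest on fewer libraries than the main fit. In the block Tbx5 had -0.37 in infused loss, Meox2 0.00786 in gain and Gata6 -0.0481 for the interaction. No label pairs samples by number. Deviations of same-numbered libraries from their group means correlated at 0.03, -0.05 and -0.04 in uninjured loss. They correlated at 0.18 and -0.04 in infused loss and 0.10 and 0.06 in gain. In a group of 2 libraries the deviations mirror each other, and all groups are small, so these values cannot decide whether samples were paired. The infused groups of 2 libraries limit what could pass, and the exact depth in reads is not known.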
